A study of Homo sapiens with 9 samples.

Results

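The cytosolic ribosomal protein genes were examined in HepG2 cells, a human liver cancer line, in which KEAP1 had been targeted with CRISPR/Cas9. The members were the features of the count data whose Entrez number maps to a symbol of the RPL or RPS series, with RPLP0, RPLP1, RPLP2 and RPSA, and without the RPS6K kinases. This rule uses names only and found 79 of the 12798 features, 30 for the small (40S) and 49 for the large (60S) subunit. Of the 86 protein-coding human symbols that fit the rule, 7 had no row in the counts used here, among them RPL3L, RPL10L, RPL39L, RPS4Y2, RPS9 and RPS18.

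KEAP1 is the adaptor that targets the transcription factor NRF2 for degradation. The study examined its loss in HepG2 cells to ask whether its control of lysosome formation acts within the cell itself and is conserved in evolution. All 3 groups were HepG2 cells transduced with a LentiCRISPRv2 vector, which carries Cas9, a guide RNA and puromycin resistance, and RNA was taken 48 h after seeding. The sgCtrl cells carried a guide against AAVS1, a safe-harbor locus, and the sgKeap1-1 and sgKeap1-2 cells carried 1 of 2 guides against KEAP1. The study describes puromycin selection and no cloning step for these lines, and each group had 3 libraries, numbered 1 to 3. Nothing in the labels says that the libraries of a group came from separately transduced cells, so p-values measure only the spread between these libraries.

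A ribosome is built from ribosomal RNA and a single copy of most ribosomal proteins, so these proteins are needed in nearly equal amounts. The mRNAs of most of these proteins begin at a cytosine within a run of pyrimidines, the 5′ terminal oligopyrimidine (TOP) motif. Translation of TOP mRNAs follows mTORC1 signaling through LARP1, and the motif is shared by several translation factors and by host genes of small nucleolar RNAs. NRF2 acts instead through antioxidant response elements near its target genes.

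Most members with an annotated start site had a run of pyrimidines near it. Among the 79 members, 65 had an entry in the RefSeq promoter table (GRCh38.p14), and 53 of them (81.5%) had a run of at least 8 C or T between 10 bases before and 20 bases after an annotated start. The same was found for 15.4% of the 27305 genes of that table. The median longest run was 11 bases for the members and 5 for all genes. Runs were counted anywhere between these bounds and need not begin at the start itself, as a TOP motif does. The windows below are 30 bases long and run 5′ to 3′ on the gene's own strand. They cover the last promoter bases and the first bases of the 5′ UTR, with the longest pyrimidine run in capitals. The first 5 belong to members that were higher in the replicate 2 libraries, as described further on, and the last 3 to the members lowest in the same comparison.
RPS27 (chr1:153990752-153990781, plus strand): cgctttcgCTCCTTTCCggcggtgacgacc
RPL9 (chr4:39458903-39458932, minus strand): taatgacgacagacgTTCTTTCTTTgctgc
RPL34 (chr4:108620566-108620595, plus strand): CTTTTTTCTTCCTCTTCCggggacgttgtc
RPS3A (chr4:151099618-151099647, plus strand): cccacttccgCCCTTTTggctctctgacca
RPS23 (chr5:82278335-82278364, minus strand): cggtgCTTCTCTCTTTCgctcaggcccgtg
RPS27L (chr15:63157458-63157487, minus strand): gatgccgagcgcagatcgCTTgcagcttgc
RPS15 (chr19:1438386-1438415, plus strand): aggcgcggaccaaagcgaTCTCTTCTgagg
RPL22L1 (chr3:170870176-170870205, minus strand): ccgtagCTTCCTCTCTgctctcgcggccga
RPL34 had the longest run of these, with 18 bases, and RPS27L the shortest, with 3. Where a gene had several annotated starts, the start with the longest run is shown. Over the 300 bases around the start, on both strands, TGACNNNGC, the core of the antioxidant response element, was present for 13.8% of the members and 16.1% of all genes. TATAAA was found for 9.23% of the members and 14.0% of all genes. CCGGAAG, a motif of ETS-family factors, was found for 35.4% and 12.2%. These matches describe the sequence and show nothing about binding.

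Counted reads ranged from 3051755 to 4793757 per library. The members took a similar share of them in every group. Their share was 10.8, 11.8 and 10.6% in sgCtrl replicates 1, 2 and 3, 10.8, 12.0 and 10.3% in sgKeap1-1, and 10.2, 11.0 and 11.5% in sgKeap1-2. The group means were 11.1 ± 0.654%, 11.0 ± 0.865% and 10.9 ± 0.667% (SD, n = 3), which differ by less than the spread within any group. In bulk RNA, fewer cells of a kind and less RNA per cell cannot be told apart. In sgCtrl and sgKeap1-1 the highest share was that of replicate 2, and in sgKeap1-2 it was that of replicate 3.

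**Figure D1:**
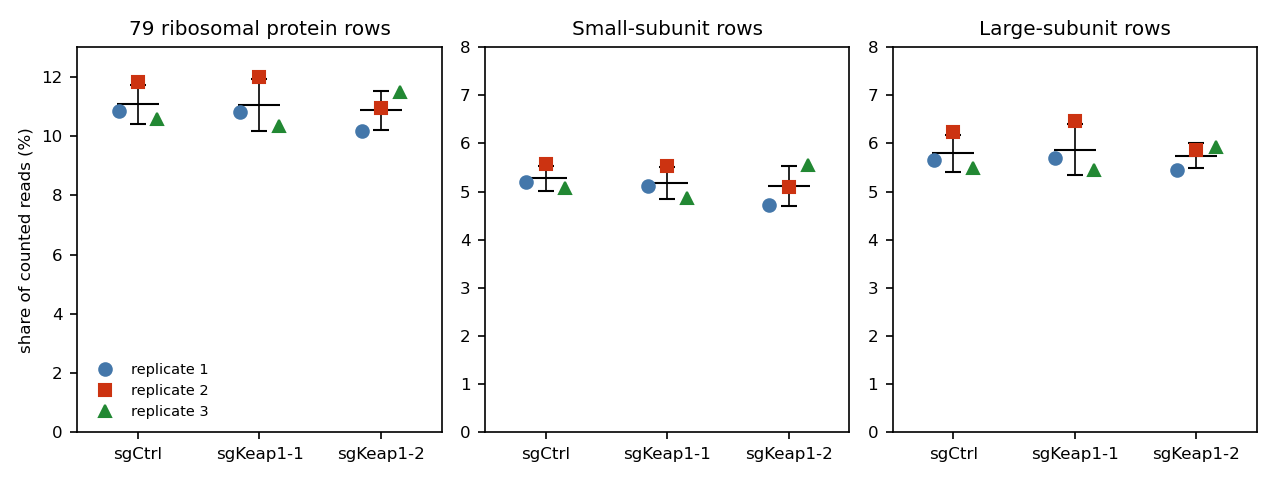
Share of counted reads (%) in the 79 ribosomal protein rows and in the small- and large-subunit rows, 1 point per library, with the group mean and SD (n = 3). The groups overlap, and replicate 2 is the highest library in sgCtrl (11.8%) and sgKeap1-1 (12.0%).

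Before the comparisons, 4 libraries were seen to hold the extreme values of more members than of all features. In sgKeap1-1 replicate 2, 38 of the 77 members that passed the filter on low counts were higher than in any other library, whereas 10.9% of all features were. In sgKeap1-2 replicate 3, 21 members were at their highest and 22 at their lowest of the 9 libraries, against 18.7 and 20.3% of all features. In sgKeap1-2 replicate 1, 26 members were at their lowest, and in sgKeap1-1 replicate 3, 17 were, against 8.48 and 8.04% of all features. RPS25, a small-subunit protein, was at 59.9 normalised CPM (counts scaled to the same library total) in sgKeap1-2 replicate 3 and between 173.7 and 338 in the other libraries. RPL23A and RPL3 were also at their lowest there, with 81.2 and 12.9 CPM. RPS4X, RPL8 and RPS27A were at their highest there, with 2979, 1570 and 8968 CPM. NQO1, an NRF2 target used as a check of the labels, was at 500 to 528 CPM in sgCtrl and at 1250 to 1877 CPM in the KEAP1 guide libraries, so the groups did not overlap. KEAP1 itself was at 62.3 to 87.9 CPM in sgCtrl, 52.8 to 63.2 in sgKeap1-1 and 73.0 to 84.6 in sgKeap1-2. Reads at the 3′ end lie outside the cut sites and do not check the labels.

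QuantSeq counts 1 tag at the 3′ end of each mRNA, so levels in CPM were compared between genes without a length correction. RPS27A, a ubiquitin fusion of the small subunit, had the highest mean in sgCtrl, with 6882, 7790 and 7269 CPM in replicates 1, 2 and 3. RPL37A followed with 6548, 6992 and 6486 CPM, and RPS29 with 6312, 7155 and 6105 CPM. RPS27A was the highest of these 3 members within each sgCtrl library. The order of RPL37A and RPS29 differed between the libraries and is not resolved. The next members, RPL27A and RPS24, lay between 4490 and 5634 CPM in sgCtrl. The 10 most abundant members held 40.9% of all member reads. In unscaled CPM, 39 members had a sgCtrl mean above 1000, 14 were below 100, and the median member was at 941 against 22.9 for all features.

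A few members had almost no reads. RPS27, RPL7, RPL21, RPS26 and RPL17 were the 5 members below 10 CPM. RPL17 had 1 to 10 reads per library, RPS26 4 to 15 and RPL21 5 to 19. How reads matching several places were counted is not given, so a low row need not mean a low level of the mRNA. RPL17 and RPS26 did not pass the filter on low counts and were not tested, which leaves 77 of the 79 members.

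**Figure D2:**
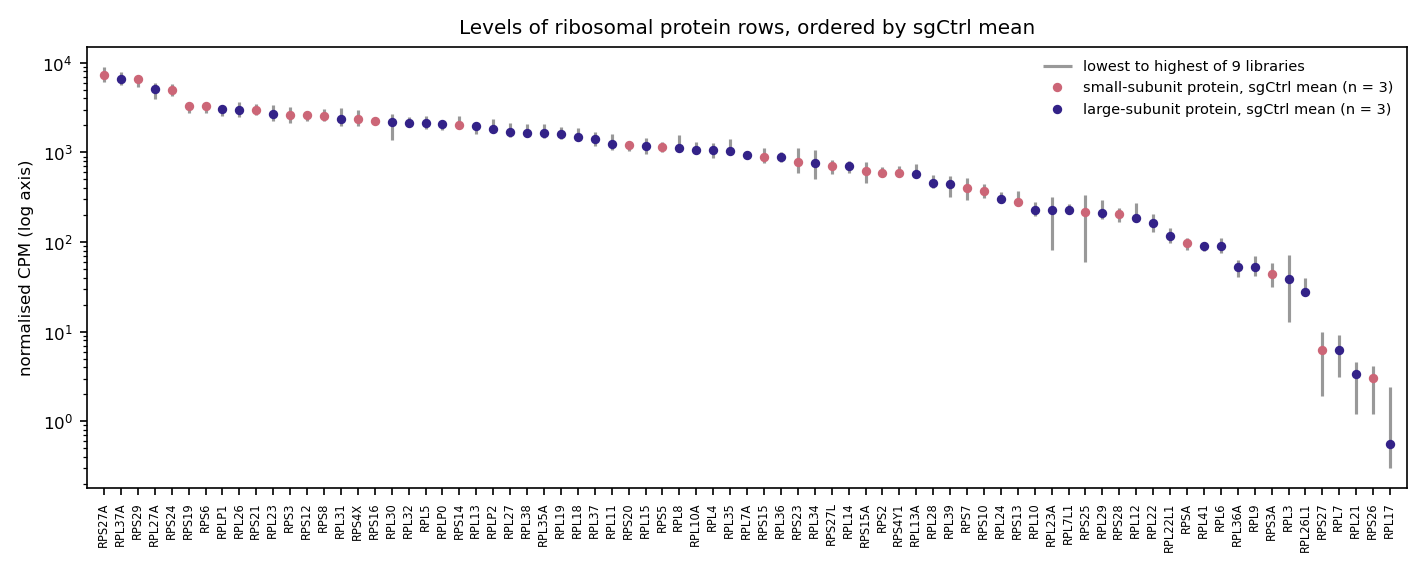
Normalised CPM (log axis) of 77 of the 79 ribosomal protein rows in order of their sgCtrl mean (points, n = 3), with lines from the lowest to the highest of the 9 libraries. Levels are highest for RPS27A, RPL37A and RPS29 and lowest for RPL21, RPS26 and RPL17.

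Rows named for pseudogenes of these genes also held reads. The count data contained 115 such rows, and 53 of the 79 members had at least 1. The pseudogene rows held 324629 reads over the 9 libraries, against 3836420 for the members. In 9 cases the pseudogene row had more reads than the row of the gene it is named for. RPL3, a large-subunit protein at the peptidyl transferase center, had 1502 reads and RPL3P4 13643. RPL36A had 1846 reads and RPL36AP37 16985, and RPL23A had 7414 and RPL23AP42 19802. RPS18 had no row, whereas RPS18P5 held 24692 reads. How reads that match both a gene and its copies were counted is not given in the sources used here, so levels of these members are uncertain. The pseudogene rows held 8.24 ± 0.105, 8.67 ± 0.719 and 8.44 ± 0.934 reads per 100 member reads in sgCtrl, sgKeap1-1 and sgKeap1-2 (SD, n = 3), and the ranges of the groups overlapped.

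No ribosomal protein mRNA passed the test with either KEAP1 guide. With sgKeap1-1, 0 of the 77 members passed an adjusted p of 0.05 in edgeR's quasi-likelihood test, where 3.94% of the 11788 features tested did. With sgKeap1-2 the members again had 0 calls, where 10.2% of all features were called. With both guides pooled (6 libraries against 3) there were 0 calls against a background of 9.24%. At an unadjusted p under 0.05 there were 0 members in each of these comparisons, against 14.6, 22.7 and 21.8% of all features. Limma-voom and DESeq2 called 0 members as well. Of all features they called 425 and 563 with sgKeap1-1, 1107 and 1298 with sgKeap1-2, and 991 and 1252 with the guides pooled. The count of members was also 0 with any 1 of the 9 libraries left out.

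The fitted differences were small. The median log2 fold change of the members was 0.01 with sgKeap1-1 and -0.02 with sgKeap1-2, and that of all features was 0.00 and -0.01. With 1 library left out, the members' median changed sign for both guides. It ran from -0.09 without sgKeap1-1 replicate 2 to 0.11 without sgCtrl replicate 2 for sgKeap1-1, and from -0.07 without sgCtrl replicate 3 to 0.04 without sgCtrl replicate 2 for sgKeap1-2. The median size of the log2 fold change, without its sign, was 0.05 for the members and 0.19 for all features with sgKeap1-1. With sgKeap1-2 these were 0.08 and 0.25. The 95% interval of the log2 fold change lay within ±0.5 for 64 of 77 members with sgKeap1-1 and for 60 of 77 with sgKeap1-2. For the others, among them RPL3, RPS27 and RPL7, a change of that size was not excluded by the interval. By subunit, the median was 0.04 for 48 large-subunit and -0.03 for 29 small-subunit members with sgKeap1-1, and -0.01 and -0.03 with sgKeap1-2.

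**Figure D3:**
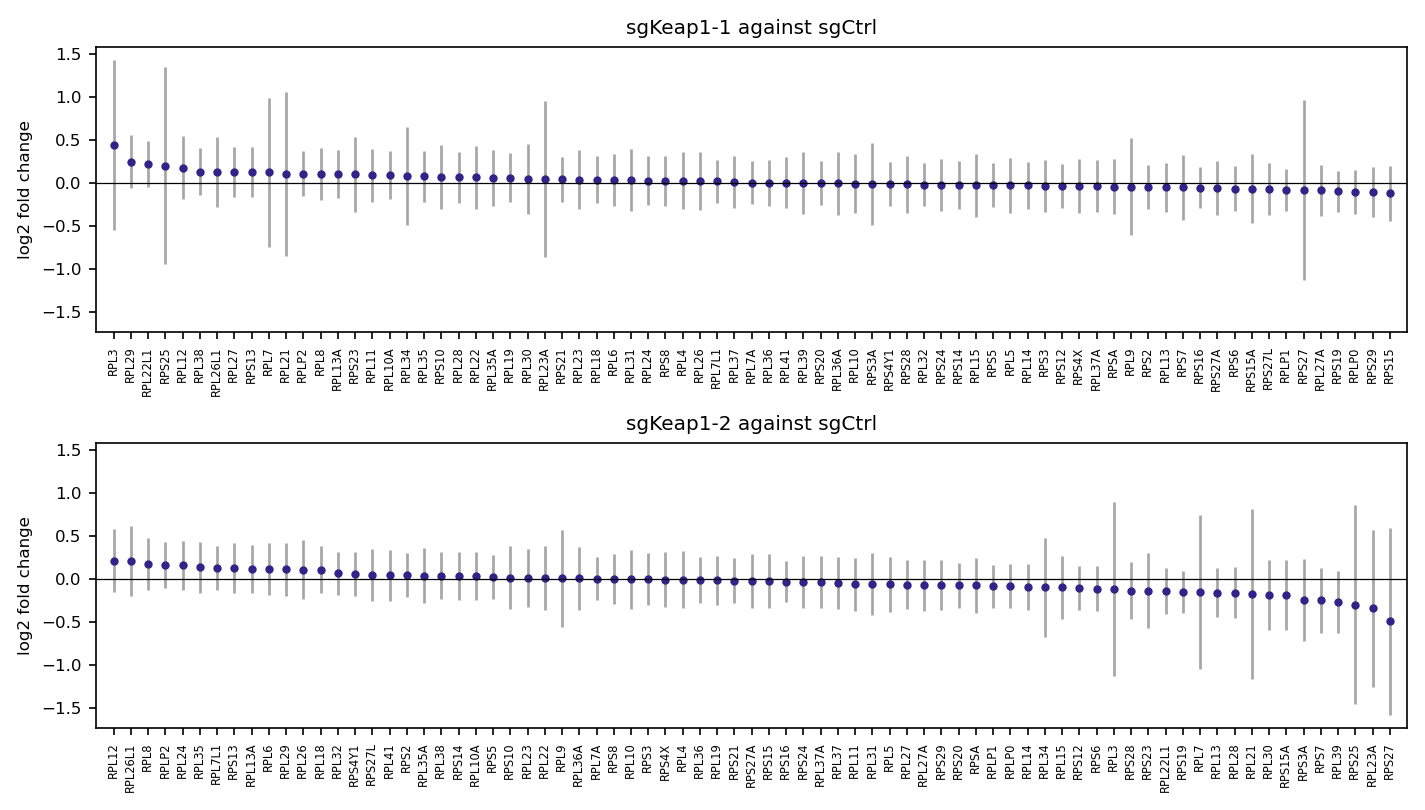
Log2 fold change (points) with its 95% interval (lines) for 75 of the 77 members tested, for each KEAP1 guide against sgCtrl (3 libraries each), ordered by size. For both guides, the interval of each member includes 0.

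The stalk of the large subunit, which recruits elongation factors, is formed by RPLP0, RPLP1 and RPLP2. RPLP0 was at 2077, 2235 and 1963 CPM in sgCtrl replicates 1, 2 and 3, at 1942, 1956 and 1930 in sgKeap1-1, and at 1785, 1887 and 2256 in sgKeap1-2. Its log2 fold change was -0.11 ± 0.12 (SE) with sgKeap1-1 and -0.08 ± 0.12 with sgKeap1-2 (edgeR, adjusted p = 0.788 and 0.758). RPLP1 was at 3025 to 3030 CPM in sgCtrl and had log2 fold changes of -0.08 with each guide. RPLP2 was at 1754 to 1885 CPM in sgCtrl and had log2 fold changes of 0.11 and 0.16. The 95% interval of each of these fold changes included 0.

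RPS6, the small-subunit protein phosphorylated by S6 kinase downstream of mTORC1, was at 3165, 3480 and 3137 CPM in sgCtrl. It was at 3145, 3419 and 2792 CPM in sgKeap1-1 and at 2773, 2886 and 3399 in sgKeap1-2, and the 3 groups overlapped. Its log2 fold changes were -0.06 and -0.11 with intervals of -0.33 to 0.20 and -0.38 to 0.15. RPSA, a small-subunit protein also known as the laminin receptor, was at 92.3 to 101.5 CPM in sgCtrl and had log2 fold changes of -0.04 and -0.07. RPL5 and RPL11, which with 5S RNA can bind MDM2, had log2 fold changes between -0.06 and 0.09 with the 2 guides.

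Some paralogues of ribosomal proteins are expressed in some tissues in place of the common form or beside it. Of the 9 on the list, RPL7L1, RPL22L1, RPL26L1, RPS27L and RPS4Y1 had rows. RPL22L1 was at 120.2, 111.4 and 119.1 CPM in sgCtrl, at 144.7, 128.9 and 135.7 in sgKeap1-1, and at 117.4, 103.4 and 98.2 in sgKeap1-2. All 3 sgKeap1-1 libraries were above all sgCtrl libraries, while sgKeap1-2 overlapped with sgCtrl. The log2 fold changes were 0.22 ± 0.12 and -0.14 ± 0.12 (SE, edgeR adjusted p = 0.459 and 0.573). RPL22, the common form, was at 145.8 to 187.2 CPM in sgCtrl and had log2 fold changes of 0.07 and 0.01.

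RPS27L, a p53 target, was at 588.7 to 820.3 CPM in sgCtrl, and the row of RPS27 at 4.43 to 9.39 CPM. Its log2 fold changes were -0.06 and 0.05. RPL7L1 was at 220.4 to 238.2 CPM in sgCtrl and had log2 fold changes of 0.02 and 0.13, and the row of RPL7 was at 3.39 to 9.10 CPM. RPS27 and RPL7 had 189 and 214 reads in all, and a pseudogene row of RPL7 held 467, so the order of these pairs is uncertain. RPL26L1 was far below RPL26, at 26.7 to 30.2 against 2606 to 3571 CPM. RPS4Y1 was at 555.8 to 598.6 CPM in sgCtrl and RPS4X at 2239 to 2438 CPM, and their log2 fold changes with the guides lay between -0.04 and 0.06.

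The members at the ends of the ranking did not pass the test. With sgKeap1-1 the highest log2 fold changes were those of RPL3 (0.44 ± 0.44, SE) and RPL29 (0.25 ± 0.14), and the lowest those of RPS15 (-0.12), RPS29 (-0.11) and RPLP0 (-0.11). With sgKeap1-2 the highest were RPL12 (0.21), RPL26L1 (0.21) and RPL8 (0.17), and among the lowest were RPS27 (-0.49 ± 0.50) and RPL23A (-0.34 ± 0.40). The direction of RPL8 and RPL23A turned without sgKeap1-2 replicate 3, at -0.02 and 0.02. With the guides pooled, RPL12 (0.19), RPL3 (0.19) and RPL29 (0.18) were highest and RPS27 (-0.27), RPS7 (-0.15) and RPL23A (-0.13) lowest.

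Compared with each other, the guides gave 0 member calls, where 0.017% of all features were called, and 1 member, RPL22L1, had an unadjusted p under 0.05. Its log2 difference was -0.36 for sgKeap1-2 against sgKeap1-1 (edgeR adjusted p = 0.918). Limma-voom and DESeq2 also called 0 members, where they called 0 and 19 of all features. The highest log2 differences were those of RPL24 (0.13), RPS27L (0.11) and RPL7L1 (0.11), and among the lowest were those of RPL3 (-0.55) and RPS25 (-0.50), which were low in sgKeap1-2 replicate 3.

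Among genes that work with the ribosome, each list had a smaller share of calls than all features (3.94% with sgKeap1-1 and 10.2% with sgKeap1-2), and this difference was not tested. In the list of translation factors, 0 of 33 tested passed with sgKeap1-1 and 1 with sgKeap1-2, EIF3D, a subunit of the initiation factor eIF3, which rose by 0.50 ± 0.15 on the log2 scale (edgeR adjusted p = 0.0468). Among 131 ribosome biogenesis factors, 0 passed with sgKeap1-1 and 2 rose with sgKeap1-2, POP1, of RNase P and RNase MRP, by 0.72 and the helicase DDX27 by 0.48. In 71 mitochondrial ribosomal proteins, 0 passed with sgKeap1-1, and with sgKeap1-2 MRPL39 fell by 1.12 on the log2 scale and MRPS5 rose by 0.38. Of 17 genes of mTORC1 signaling and TOP control, 0 passed with sgKeap1-1, and with sgKeap1-2 only PDCD4, an inhibitor of eIF4A, fell, by 0.72. In the list of RNA polymerase I machinery 0 of 14, and in that of snoRNA host genes 0 of 10, passed with either guide. With the guides pooled, none of EIF3D, POP1, DDX27, MRPL39, MRPS5 and PDCD4 passed (edgeR adjusted p = 0.0631 to 0.271), and the 1 call in these lists was MRPL28, which rose by 0.66 on the log2 scale (adjusted p = 0.0389). FAU, RPL36AL and RACK1, ribosomal components that the naming rule does not reach, had log2 fold changes of 0.05, 0.07 and 0.06 with sgKeap1-1 and of 0.06, 0.06 and -0.12 with sgKeap1-2, and none passed.

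More members passed the test between replicates than between groups. Every replicate number holds 1 library of each group, and the sample descriptions share a prefix within a number whose meaning they do not give. With the group in the model, 18 of the 77 members were higher in the replicate 2 libraries than in replicates 1 and 3 and 0 were lower (edgeR, adjusted p under 0.05), where 4.56% of all features were higher and 3.27% lower. This is 23.4% of the members tested. Replicates 1 and 3 were not each set against the others in this way. The p-values take no account of the choice of replicate 2. At an unadjusted p under 0.05, 35 members were higher and 1, RPS27L, was lower, which is 46.8% of the members against 23.8% of all features in either direction. Limma-voom called 24 members higher and DESeq2 18, and each called 0 lower. Of the 11788 features tested, limma-voom called 589 higher and 391 lower, and DESeq2 405 higher and 277 lower. The median log2 fold change was 0.20 for the members and 0.00 for all features, and 68 of 77 members were above 0. Between replicates 3 and 1 there were 0 calls among all features, and 3 members and 828 features had an unadjusted p under 0.05 (limma-voom 0 and DESeq2 2 features called, with 0 members in either). Between these replicates RPS27 (0.43), RPL39 (0.37) and RPL27A (0.22) had the highest log2 fold changes, and RPS25 (-0.73) and RPL3 (-0.69) were among the lowest, which were low in sgKeap1-2 replicate 3.

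**Figure D4:**
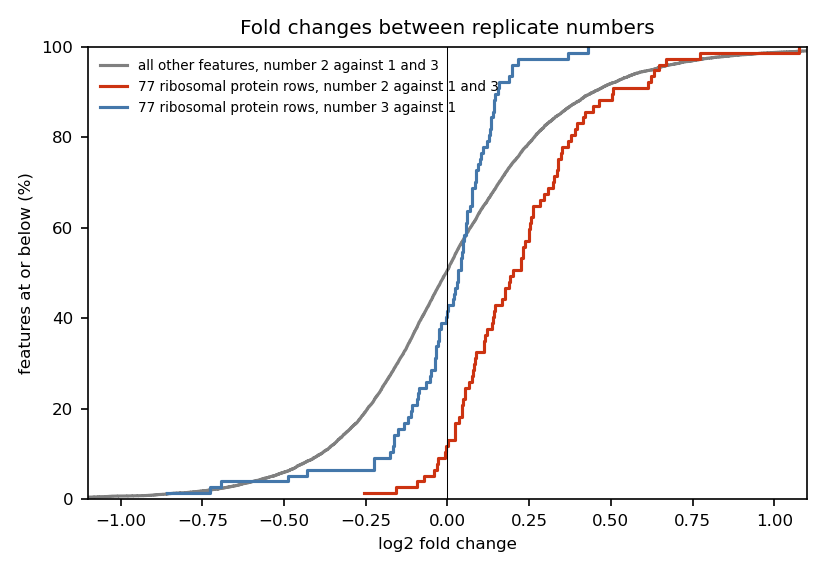
Cumulative share of features (%) against log2 fold change between replicate numbers, with the group in the model, for 77 ribosomal protein rows and for all other features tested. The members' curve for replicate 2 against 1 and 3 lies to the right of that of other features, with medians of 0.20 for members and 0.00 for all features.

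RPL34, a large-subunit protein with the 18-base pyrimidine run shown above, was at 682.6, 935.5 and 667.2 CPM in sgCtrl replicates 1, 2 and 3. It was at 682.9, 1075 and 661.9 CPM in sgKeap1-1 and at 674.6, 959.1 and 501.7 in sgKeap1-2. All 3 replicate 2 libraries were above the other 6. Its log2 fold change was 0.62 ± 0.09 (SE, edgeR adjusted p = 0.00032). RPL9, another large-subunit protein, was at 45.9, 69.8 and 43.6 CPM in sgCtrl, 41.8, 69.2 and 42.4 in sgKeap1-1, and 41.4, 69.9 and 47.7 in sgKeap1-2. The replicate 2 values were close to each other and above all others, and the log2 difference was 0.67 ± 0.11 (adjusted p = 0.0011).

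RPS23, of the decoding center, was at 724.8, 934.1 and 668.0 CPM in sgCtrl, 741.3, 1111 and 640.6 in sgKeap1-1, and 740.0, 793.3 and 583.8 in sgKeap1-2. The replicate 2 libraries were again the highest of each group, by a smaller margin in sgKeap1-2, and the log2 difference was 0.47 ± 0.09 (edgeR adjusted p = 0.0037). RPS3A, a small-subunit protein without a run of 8 in its start window, was at 43.0, 57.7 and 33.1 CPM in sgCtrl, 43.5, 51.3 and 37.2 in sgKeap1-1, and 32.8, 47.9 and 31.6 in sgKeap1-2. Its replicate 2 libraries were above the other 6, and the log2 difference was 0.51 ± 0.12 (adjusted p = 0.0153). RPS27 had the highest log2 fold change, 1.08 ± 0.30 (adjusted p = 0.0331), from 28, 46 and 24 reads in the replicate 2 libraries and 8 to 21 in the others.

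Other members called were RPS15A (0.44), RPL30 (0.42), RPL15 (0.42), RPL22 (0.40), RPL31 (0.39), RPS7 (0.37), RPL23 (0.35), RPL4 (0.34), RPL35A (0.34), RPS28 (0.33), RPL5 (0.32) and RPL11 (0.28), each with its log2 fold change. They come from both subunits, with 7 calls of 29 small-subunit and 11 of 48 large-subunit members tested. For 17 of the 18 the replicate 2 library was the highest of its group in all 3 groups. The 18 were picked from these same values, so this is no separate support.

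Several members did not follow. RPS27L had a longest run of 3 bases in its start window. In replicate 2 it was lower, at 588.7 and 567.7 CPM, than in other libraries of sgCtrl and sgKeap1-1 (720.9 to 820.3). This was not so in sgKeap1-2. The log2 fold change of RPS27L was -0.26 ± 0.09 (edgeR adjusted p = 0.102). RPS15 (-0.16) and RPL22L1 (-0.09) were next lowest and did not pass. The stalk proteins RPLP0 (0.02), RPLP1 (0.03) and RPLP2 (-0.03), RPS6 (0.09) and RPSA (0.11) were near 0. Among the 5 most abundant members, RPS27A and RPL37A had log2 fold changes of 0.02 and 0.05, while RPS29 and RPS24 had 0.23 and 0.22 and did not pass.

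Replicate 2 was the highest library for 61 of 77 members in sgCtrl, for 65 in sgKeap1-1 and for 36 in sgKeap1-2, against 36.9, 36.9 and 33.2% of all features. In all 3 groups at once it was the highest for 27 members, against 12.1% of all features. In sgKeap1-2 fewer members had replicate 2 highest, and there replicate 3 was the library described above with 21 members at their highest.

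**Figure D5:**
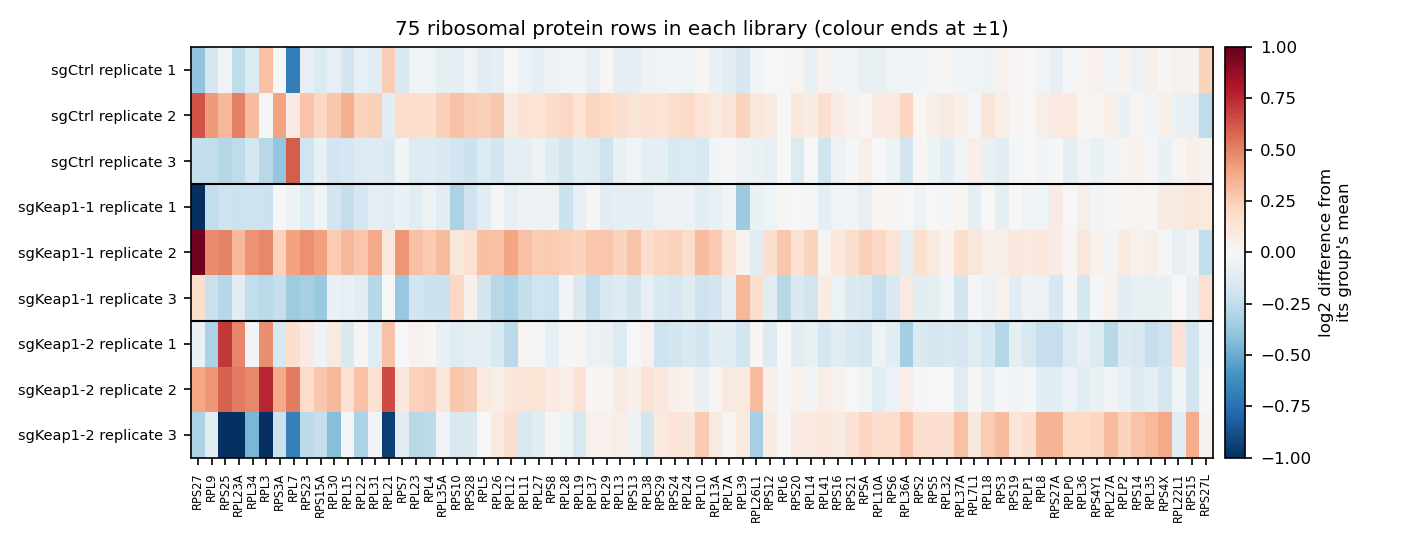
Log2 difference of each of 75 of the 77 members from its own group's mean in each library (colour, ending at ±1), ordered by log2 fold change of replicate 2 against 1 and 3. Replicate 2 of sgCtrl and sgKeap1-1 is above its group's mean for most members, and sgKeap1-2 replicate 3 is far below it for RPS25, RPL3 and RPL23A and above it for RPS4X, RPL8 and RPS27A.

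The count of members called depended on single libraries. It was 18 without sgKeap1-1 replicate 3, where 4.44% of all features were higher. It was 22 without sgKeap1-2 replicate 1 (21 higher and 1 lower), where 6.35% of all features were higher. Without sgCtrl replicates 1, 2 and 3 in turn it was 9, 7 and 13, where 2.83, 2.55 and 4.08% of all features were higher. Without sgKeap1-1 replicates 1 and 2 in turn it was 7 and 2, where 2.22 and 0.908% of all features were higher. Without sgKeap1-2 replicate 2 it was 8, where 1.94% of all features were higher. Without sgKeap1-2 replicate 3 it was 40 (39 higher and RPS27L lower), where 6.40% of all features were higher. RPL34 and RPL9 were called in all 9 of these fits, with log2 fold changes of 0.57 to 0.70 and 0.65 to 0.71. RPS15A and RPS23 were lost only without sgKeap1-1 replicate 2. RPS27 was called in 3 of the 9.

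Other lists of the translation machinery also had calls in replicate 2, where 4.56% of all features were higher and 3.27% lower. RACK1, a small-subunit protein outside the naming rule, rose by 0.35 in log2 fold change in replicate 2 (edgeR adjusted p = 0.0144), and FAU and RPL36AL did not pass. Among 33 translation factors, with a median of 0.02, 6 were higher and 0 lower, led by EIF4B (0.86), EIF3E (0.68), EIF4A2 (0.65) and EIF3M (0.40). Among 10 snoRNA host genes 4 were higher and 0 lower, SNHG5 (0.64), ZFAS1 (0.55), TAF1D (0.51) and GAS5 (0.36). The pseudogene rows had 12 of 96 higher and 0 lower, with a median of 0.36. How reads matching both a gene and its copies were counted is not given, so these rows may not be independent of the members. Ribosome biogenesis factors had 2 higher, RSL24D1 (0.56) and SBDS (0.54), and 6 lower, among them TCOF1 (-0.51) and GRWD1 (-0.50), of 131. The RNA polymerase I list had 2 higher (POLR1D and TAF1D) and 3 lower (UBTF, TAF1C and POLR1G) of 14. The list of mTORC1 signaling and TOP control had 0 higher and 0 lower of 17, with a median of -0.01. In 71 mitochondrial ribosomal proteins 1 was higher, MRPL10, and 1 lower, MRPL27, with a median of 0.00.

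Other measures also moved with the replicate number. The summed level of the 9 markers of blood, endothelial or stromal cells, of which LYZ, CD68 and COL1A1 had rows, was 1507 to 2435 unscaled CPM in the replicate 2 libraries and 663 to 1087 in the others. LYZ made up nearly all of it, with 1513 to 2502 normalised CPM in replicate 2, and CD68 and COL1A1 were at or below 5.7 CPM in every library. Of the 9 hepatocyte markers, which all had rows, ALB (0.42) and AFP (0.42) were higher in replicate 2 by their log2 fold changes and passed the test, and 0 were lower. Their sum differed between the groups, at 30008 to 36373 unscaled CPM in sgCtrl and 14491 to 20958 with the KEAP1 guides. The single markers did not all fall. With sgKeap1-1, 5 of the 9 were lower and TTR was higher (edgeR, adjusted p under 0.05). With sgKeap1-2, 6 were lower and TTR was higher. Of all features, 3.94 and 10.2% were called in either direction. Of the 6 NRF2 targets on the list with a row, SLC7A11 (0.69), AKR1B10 (0.59) and TXNRD1 (0.54) were also higher in replicate 2, and NQO1 (0.02) did not pass. Transcript GC content was lower for the 18 called members, with a median of 44.5% against 47.8% for the other 59. The Spearman correlation across genes of GC content with the replicate 2 log2 fold change was -0.21 over 77 members and -0.22 over 10781 other features, which share the same libraries. For the last 300 bases of the transcript, nearer to the reads, it was -0.09 and -0.28. Their part in the difference between replicates was not tested.

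Pyrimidine runs near the start were compared between called and other members. Among members with a promoter entry, 12 of the 13 called in replicate 2 had a run of at least 8, RPS3A being the exception, and 40 of the 50 others did. The median longest run was 11 bases in the called members and 11.5 in the others, and the difference was not tested.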

How the data were processed

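RNA of 9 HepG2 libraries was measured. The authors prepared QuantSeq 3′ libraries, sequenced single-end reads, and deposited whole-number counts per gene. The submitters' processing notes name FastQC 0.72, Cutadapt 1.16, STAR 2.7.5b, featureCounts 1.6.3 and limma 3.40.6. The study's methods give the build as GRCh37 and the notes give hg38. The counts hold no coordinates. The strand setting and the handling of reads matching several places are not given in the sources used here, so genes that overlap or have near-identical copies are uncertain.

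Groups and replicate numbers came from the sample titles. Counts were analysed with edgeR 4.0.16 (R 4.3.3), using filterByExpr, TMM scaling, a robust quasi-likelihood fit with the 3 groups, and Benjamini-Hochberg adjustment over all 11788 features tested. The comparison of replicate numbers had group and number as factors, and pooled guides were fitted as 2 groups. Levels are CPM on TMM-scaled library sizes, 95% intervals come from the same fit, and deviations used a prior count of 2. Reads carry no molecular identifiers, so depth sets counting error only. The fits were tested on simulated data. Within groups, libraries differed by more than sampling noise (chi-square per degree of freedom 4.60 to 24.1 over features averaging at least 50 counts).

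The members, the lists and the comparison of replicate 2 were chosen with earlier results of these data known. The genes named were the members called in a comparison (up to 10 a direction), the 3 highest and 3 lowest members of each comparison, the 3 most and 3 least abundant, RPLP0, RPLP1, RPLP2, RPSA, RPS6, RPL5, RPL11, paralogues with their common forms, FAU, RPL36AL, RACK1, up to 4 called genes of each list, KEAP1 and NQO1. Other genes, such as further members called or low in 1 library, were named after their values were seen. A few genes that the rule would name are not reported here by name, and counts and medians include them where they had a row. Start windows came from RefSeq (GRCh38.p14), and transcript GC content from GENCODE transcripts (GRCh37). Alternatives were other scalings, filters and tools, the replicate block, leaving out each library, and adding pseudogene reads to the gene.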

Additional observations from a re-analysis of the deposited data

Results flagged for a closer look

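In the 6 KEAP1 guide libraries, 9 members had 1 library far from the other 5. This happens by chance in about 1 in 20 such groups, and 79 members were looked at, which are not independent within a library. In sgKeap1-2 replicate 3, RPLP0 was at 2256 CPM (others 1785 to 1956), RPS14 at 2535 (1863 to 2080), RPL18 at 1892 (1404 to 1587), RPS15 at 1125 (761 to 893) and RPS4Y1 at 697 (546 to 596), all above the rest. RPL21 was below the rest there, at 1.20 CPM (3.35 to 4.58), from 5 reads. In sgKeap1-1 replicate 2, RPS27L was low at 568 CPM (722.5 to 753), whereas RPS7 was high at 514 (292 to 366) and RPL29 at 297.5 (216 to 232). RPL22L1 had log2 fold changes of 0.22 with sgKeap1-1 and -0.14 with sgKeap1-2, and neither passed. Its sgKeap1-1 libraries were above and its sgKeap1-2 libraries below the sgCtrl library of the same number, but the numbers are not shown to pair libraries, and without pairing sgKeap1-2 overlapped with sgCtrl. The difference between the guides was -0.36 and did not pass (edgeR adjusted p = 0.918).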

How the results depend on the processing

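The count of 0 members called for each KEAP1 guide, for both pooled and between the guides was the same under every scaling, filter, tool and left-out library that was run, under adding pseudogene reads to their gene (an alternative chosen after seeing the data), and under the replicate block. The labels do not say that a replicate number pairs libraries. Deviations from the group means correlated above 0.1 in 7 of 9 same-numbered pairs (range -0.03 to 0.50), with a mean of -0.11 over the 18 pairs of different numbers, and sgKeap1-1 replicate 1, sgKeap1-2 replicate 1 and sgKeap1-2 replicate 3 correlated best with a library of another number, so the numbers were not used as pairs. With the replicate block, 0 members were called in each comparison with 988, 1976, 25 and 1629 features called for sgKeap1-1, sgKeap1-2, the guides against each other and both pooled, and the medians of the members were 0.01, -0.03, -0.03 and -0.01. The 18 members called in replicate 2 became 15 to 24 under other scalings, filters and tools and 2 to 40 when 1 library was left out. In the same fits, 3.44 to 5.21% and 0.908 to 6.40% of all features were higher. The cause of these shifts was not tested. The share of counts in sgCtrl was 11.8% without the 10 most abundant other features in the denominator, which is fewer reads, and 10.7 to 11.3% without 1 library. Some log2 fold changes that did not pass the test in the first place turned when 1 library was left out, and none passed when turned. With sgKeap1-2, RPL8 ranged from -0.015 to 0.29 and RPL23A from -0.57 to 0.016. Between the guides, RPS27L ranged from -0.00019 to 0.19. With both guides, RPL3 ranged from -0.0030 to 0.38, RPL23A from -0.26 to 0.16, with 0.033 without sgKeap1-2 replicate 3, and RPS27 from -0.59 to 0.12. Between replicates 3 and 1, RPS27 ranged from -0.027 to 0.76. RPL3 with both guides was also -0.015 with pseudogene reads added. The cause was not tested. RPS27, RPL21, RPL7, RPS26 and RPL17 have too few reads for small changes to be detectable at this depth.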
